A study of Mus musculus with 8 samples.

Results

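The genes of oxidative phosphorylation were followed in mouse primary hepatocytes across 2 substrate stiffnesses and 2 genotypes. They were chosen by name among the protein-coding entries of the count table: symbols that begin with Nduf, Uqcr or Atp5, symbols that begin with Cox and a digit from 4 to 8, the 4 genes Sdha to Sdhd, and the protein genes of the mitochondrial DNA. The rule took no measured value. It found 110 of the 56748 genes listed (0.194%), of which 97 lie in the nuclear genome and 13 in the mitochondrial genome. The nuclear members comprised 40 genes named for complex I, 8 complex I assembly factors (the Ndufaf genes), 4 genes of complex II, 8 of complex III, 19 of complex IV and 18 of complex V. The mitochondrial members encode 7 subunits of complex I, 1 of complex III, 3 of complex IV and 2 of complex V. In all, 105 members had a count in at least 1 library, and 103 passed the filter on low counts and were tested, among them all 13 mitochondrial members and 90 nuclear ones. Cox7b2, Cox8b, Cox8c, Ndufb11b and a second entry of Atp5o were at 0 in every library, and Cox4i2 and Cox6b2 had at most 5 and 3 counts.

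Oxidative phosphorylation takes place in the inner mitochondrial membrane. Complex I oxidizes NADH and complex II oxidizes succinate, and both pass electrons through ubiquinone to complex III, from there through cytochrome c to complex IV, which reduces oxygen. Complexes I, III and IV pump protons, and complex V (ATP synthase) uses the return of these protons to make ATP. The core of the proton-pumping complexes is encoded partly in the mitochondrial DNA, which is transcribed as long precursors and cut into single RNAs, whereas the other subunits are nuclear gene products that are imported. Complex II is wholly nuclear. Hepatocytes are rich in mitochondria and rely on this pathway for gluconeogenesis and urea synthesis. A name does not always give the place or the whole role of the protein: Ndufa4 is a subunit of complex IV, Ndufab1 is also the mitochondrial acyl carrier protein, and Cox7a2l is a factor that joins complexes III and IV.

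All 4 groups came from Yap fl/fl; Taz fl/fl mice on the C57BL/6J background aged 7 to 8 weeks, which by the study's methods also carry a ROSA26-LSL-tdTomato reporter, so the controls carried the floxed alleles too. Mice received AAV8-TBG-Cre (Yap/TazHepKO, here KO) or AAV8-TBG-Null (here WT), and the TBG promoter restricts Cre to hepatocytes. Hepatocytes were isolated 10 days later and kept for 24 h on collagen-coated polyacrylamide hydrogels of 1 kPa (soft) or 20 kPa (stiff), which stand for a healthy and a fibrotic liver. Each of the groups WT soft, WT stiff, KO soft and KO stiff has 2 libraries. The sources differ on the sex of the mice, and they do not say whether the libraries of a group came from separate mice, so p-values measure the spread between these libraries, which may be technical.

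Polyadenylated RNA was sequenced, and libraries held 18324083 to 26442310 counts on genes. CPM is the usual depth-scaled level, with TMM-scaled library sizes. Where a library has no count for a gene, levels up to 0.116 to 0.167 CPM (3 counts, 95% confidence) remain possible from counting error alone. Yap1 had 1720 to 2913 counts in WT and 606 to 747 in KO libraries, and Wwtr1, which encodes TAZ, had 748 to 1325 and 277 to 410. Defining markers were summed for each cell type in CPM. The 8 hepatocyte markers summed to 88043 to 88752 in WT soft, 91183 to 92677 in WT stiff, 61001 to 61481 in KO soft and 60852 to 61077 in KO stiff, and most of this was Alb. Single markers did not all follow the sum. In WT, stiff against soft, 5 of the 8 had a negative log2 fold change (median -0.32). In KO against WT it was 5 of 8 on soft (median -0.15) and 4 of 8 on stiff (median -0.019). The 8 Kupffer cell markers summed to 79.8 to 83.8 CPM in WT soft, 55.1 to 61.7 in WT stiff, 114 to 115 in KO soft and 117 to 118 in KO stiff. The 8 endothelial markers were also lowest in WT stiff (49.3 to 52.5 CPM) and higher in KO soft (93.5 to 96.1) and KO stiff (94.1 to 105.5), which overlapped. The 9 stellate cell markers summed to 24.8 to 26.8 CPM in WT stiff, 36.4 to 36.5 in WT soft and 51.8 to 56.5 in KO. The 6 cholangiocyte markers, of which 1 is at 0, were at 548 to 602 in WT and 320 to 348 in KO. Markers of other liver cells were thus detected at levels that moved with the groups, and their part in the results was not tested. Which cells expressed these markers, hepatocytes included, was not tested either. In bulk samples, fewer cells of a type and less RNA per cell cannot be told apart.

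Some members have near-identical copies elsewhere in the genome, and the sequences show which counts this touches. In the GENCODE M21 transcripts (GRCm38), 97.9% to 99.9% of the 64-base windows of mt-Co2, mt-Co3, mt-Atp6, mt-Nd3 and mt-Nd4l also occur in an unprocessed pseudogene on chromosome 1, a copy of mitochondrial DNA in the nuclear genome. Over 678 aligned bases mt-Atp6, a proton-channel subunit of complex V, and the copy Gm10925 differ at 0 positions. Their first 60 coding bases are shown as the case of full identity:
mt-Atp6: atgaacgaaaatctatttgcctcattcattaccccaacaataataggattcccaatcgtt
Gm10925: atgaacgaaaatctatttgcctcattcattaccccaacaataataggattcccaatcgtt
The table gives mt-Atp6 only 268 to 442 counts per library, and its copy 339 to 672. By contrast mt-Co1, the catalytic core of complex IV, had 228861 to 384174 counts. Its copy Gm29216 covers 483 bases with 1 difference, A1066T counted from the start of the transcript, and took 177 to 393 counts. The 60 bases that carry the difference (in capitals) are shown because a read elsewhere in the aligned part could not tell the pair apart:
mt-Co1: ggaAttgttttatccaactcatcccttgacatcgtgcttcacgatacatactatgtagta
Gm29216: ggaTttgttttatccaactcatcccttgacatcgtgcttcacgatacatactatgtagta
The counts of these 5 members and, in part, of mt-Co1 (44.7% of windows shared) and mt-Nd4 (61.8%) are uncertain, since how reads with several matches were counted is not given in the sources used here. The short gene mt-Atp8, which overlaps the start of mt-Atp6, had 1 to 25 counts.

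Among nuclear members the pair looked at in detail is Ndufs5, an accessory subunit of complex I, and its processed pseudogene Ndufs5-ps on chromosome 16. They differ at 2 of 319 aligned bases, T328C and A352G from the start of the longest Ndufs5 transcript. The coding stretch with both differences (in capitals) is
Ndufs5: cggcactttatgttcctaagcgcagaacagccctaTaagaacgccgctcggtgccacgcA
Ndufs5-ps: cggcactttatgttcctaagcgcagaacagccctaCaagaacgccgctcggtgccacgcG
Of the windows of Ndufs5, 27.2% occur in the pseudogene, and for Ndufa12 and its pseudogene the share is 14.2%. Ndufs3 shares 32.7% of its windows with other genes, mostly Gm12251. Other members with high shares include Ndufaf2 (80.8%, with B230220B15Rik), Ndufb4 (36%, with Ndufb4c) and Atp5o (33.8%, with Gm15976). Cox5b-ps, listed as protein coding and therefore a member, shares 51.7% of its windows with Cox5b.

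Levels per length set part of the mitochondrial members above all nuclear ones. In WT soft, mt-Co1 stood at 9135 CPM per kb of gene length, followed by mt-Nd1 (4707), mt-Nd2 (3104), mt-Cytb (2424), mt-Nd6 (2139), mt-Nd5 (2010) and mt-Nd4 (1689), all CPM per kb. The median over the 90 tested nuclear members was 47.6 CPM per kb. The other mitochondrial members, from mt-Nd3 (58.3) down to mt-Atp8 (1.36 CPM per kb), lay within the range of the nuclear ones. Cox6a1 (428), Atp5b (312), Cox4i1 (279), Atp5a1 (275) and Cox8a (266) were the highest nuclear members on this scale. The deposited gene length can exceed the longest transcript (4237 against 1916 bases for Atp5b), so the order among nuclear members depends on the length used. Cox4i1 and Cox6a1 are structural subunits of complex IV, and Atp5a1 and Atp5b form the catalytic head of ATP synthase. The 13 mitochondrial members together took 3.23% and 3.02% of all counts in WT soft, 2.60% and 2.62% in WT stiff, 3.53% and 3.45% in KO soft and 3.29% and 3.25% in KO stiff. WT stiff libraries were the lowest and no 2 groups overlapped, although an exact permutation test of 2 against 2 libraries cannot go below p = 0.333. The 97 nuclear members took 1.04% to 1.06% of counts in the 4 WT libraries and 1.12% to 1.17% in the 4 KO libraries.

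**Figure D1:**
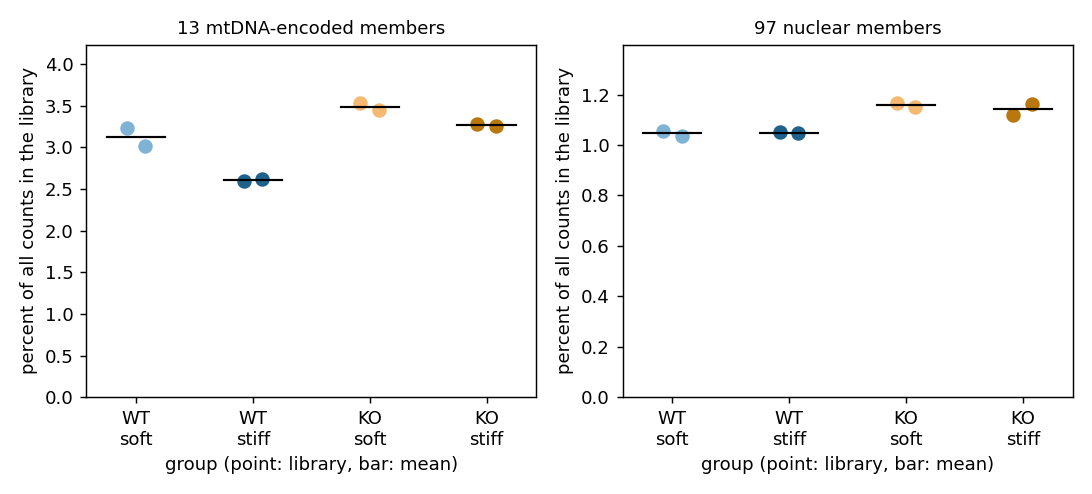
Percent of all counts in a library that fell on the 13 mitochondrial (left) and the 97 nuclear members (right), by group, with a point for each library and a bar for the mean. The mitochondrial share was lowest in the 2 WT stiff libraries (2.60% and 2.62%), and the nuclear share was higher in each KO library than in each WT library.

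To determine how substrate stiffness bears on the pathway, stiff was compared with soft in WT hepatocytes. Nuclear members stayed close to their soft level, with a median log2 fold change of 0.042 beside -0.0087 over all tested genes, while 10 of 13 mitochondrial members had a negative value and the median of the 13 was -0.20. Changed means past 2 limits, an adjusted p below 0.05 and a log2 fold change of more than 0.5 in size (quasi-likelihood test of edgeR, Benjamini-Hochberg over all 14279 tested genes). Of the 103 tested members, 2 were changed upwards (Ndufa4l2 and Ndufaf5), where 10.0% of all tested genes were. Ndufs5 alone was changed downwards, where 9.26% of all tested genes were. By adjusted p alone, 9 members were higher (21.1% of all tested genes) and 10 were lower (20.0%), and the 10 were 4 nuclear and 6 mitochondrial genes. In 80 of the 86 nuclear members with a mean of at least 100 counts, the log2 fold change lay within 0.25 of 0.

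**Figure D2:**
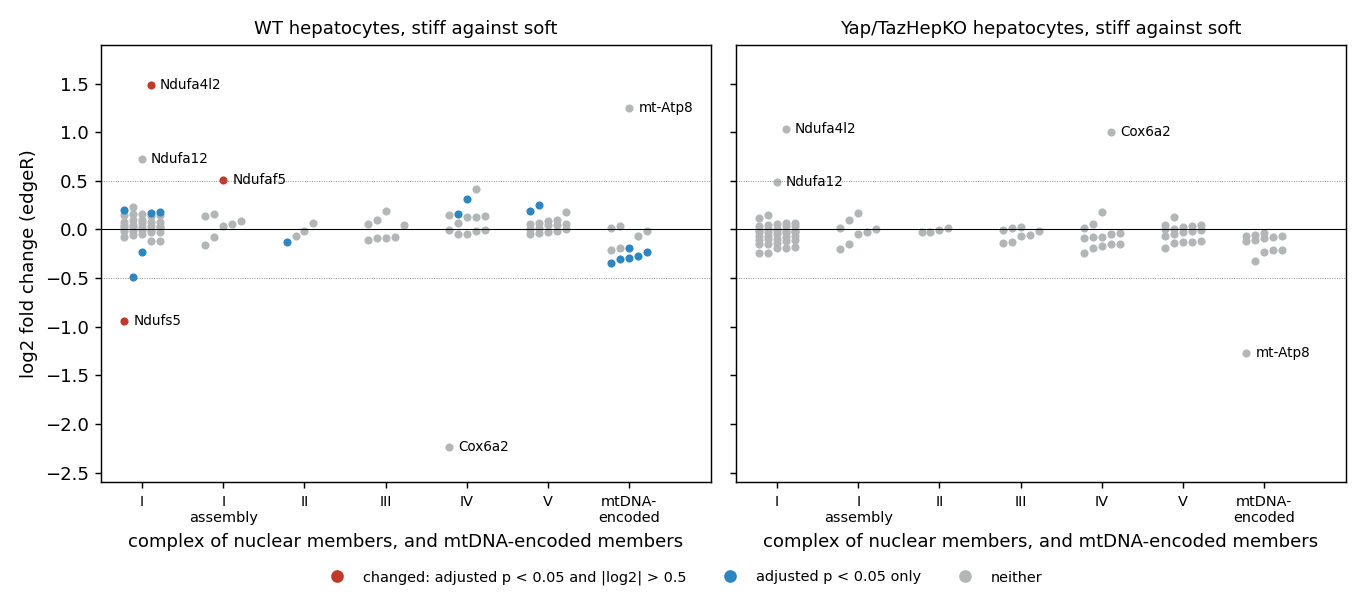
Log2 fold change of stiff against soft for each tested member in WT (left) and KO hepatocytes (right), with nuclear members by complex and mitochondrial members at the right end of each panel. Red points are changed, blue points pass the adjusted p only, and grey points pass neither. In WT, 3 members are red and most mitochondrial members lie below 0. In KO no member is red or blue.

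Ndufa4l2 encodes a relative of Ndufa4 that is known as a target of hypoxia-inducible factors and limits respiration. It had 54 and 55 counts in WT soft, 143 and 142 in WT stiff, 1 and 11 in KO soft and 17 and 6 in KO stiff. Both WT stiff libraries were above both WT soft libraries, and all KO libraries were below all WT libraries. Mean CPM in WT rose from 2.57 ± 0.69 on soft to 7.05 ± 0.23 on stiff (SD, n = 2). This was 1.48 as a log2 fold change (SE 0.34, edgeR adjusted p = 0.00174). With DESeq2 the estimate was 1.47 but the call was lost (adjusted p = 0.239). In KO the log2 fold change of stiff against soft was 1.04 (SE 0.69, edgeR adjusted p = 0.725), and the difference between the genotypes in this effect, -0.44, did not pass (edgeR adjusted p = 0.741). Its paralogue Ndufa4, a constitutive subunit, was at 178 ± 12.6 CPM in WT soft and 176 ± 4.09 in WT stiff (SD, n = 2), so the level per kb of Ndufa4 (129 in WT soft) far exceeded that of Ndufa4l2 (2.34). Among the factors named above, chosen after their values were seen, Hif1a differed by -0.07 (edgeR adjusted p = 0.343) and Epas1 fell by 1.10 on the log2 scale in WT (edgeR adjusted p = 3.74e-12). In KO Epas1 stood at 0.18 (edgeR adjusted p = 0.543), and its stiffness effect differed between the genotypes by 1.27 (edgeR adjusted p = 1.3e-10). These are RNA levels, and the activity of the factors was not measured here.

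Ndufs5 had 601 and 374 counts in WT soft, 274 and 192 in WT stiff, 1068 and 857 in KO soft and 817 and 793 in KO stiff. WT stiff libraries were the lowest and KO libraries the highest, with no overlap between WT and KO. In WT it fell by 0.94 on the log2 scale (SE 0.11, edgeR adjusted p = 2.26e-06). The pseudogene went the other way: Ndufs5-ps was at 31.6 and 37.4 CPM in WT soft, 38.0 and 41.7 in WT stiff and 27.0 to 29.4 in the 4 KO libraries. Ndufs5 made up 42.3% and 35.7% of the pair's sum in WT soft, 25.8% and 19.0% in WT stiff and 58.6% to 60.2% in KO. When the counts of the pair were summed, an alternative added after the data were seen, the log2 fold change in WT was -0.14 and the call was lost (edgeR adjusted p = 0.0778). The reported change of Ndufs5 is therefore uncertain. Ndufa12, another accessory subunit of complex I and named here after its values were seen, had 293 to 1140 counts that varied as much within groups as between them (379 and 1140 in KO stiff), and its log2 fold change in WT of 0.72 (SE 0.34) did not pass (edgeR adjusted p = 0.103).

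Ndufa6, an accessory subunit of complex I, shares no window with another gene. It was at 84.7 and 89.5 CPM in WT soft, 61.0 and 62.8 in WT stiff, 96.4 and 92.5 in KO soft and 91.7 and 94.4 in KO stiff. The WT stiff libraries stood apart below all others. The log2 fold change in WT was -0.49 (SE 0.055, edgeR adjusted p = 8.55e-07), just under the fold limit, and in KO it was -0.02 (edgeR adjusted p = 0.944). The stiffness effect differed between the genotypes by 0.47 (edgeR adjusted p = 1.19e-04), also under the fold limit of 0.5. Each of the 8 omissions of a single library kept the direction and an adjusted p below 0.05 for the WT effect and for this difference. Ndufaf5, an assembly factor that hydroxylates a subunit of complex I, rose in WT from 7.01 ± 0.33 CPM on soft to 9.99 ± 0.020 on stiff (SD, n = 2), or by 0.51 on the log2 scale (SE 0.14, edgeR adjusted p = 0.00795). This lies at the limit of 0.5, and the value was 0.47 without the second WT soft library and 0.50 (below the limit) with upper quartile scaling.

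**Figure D3:**
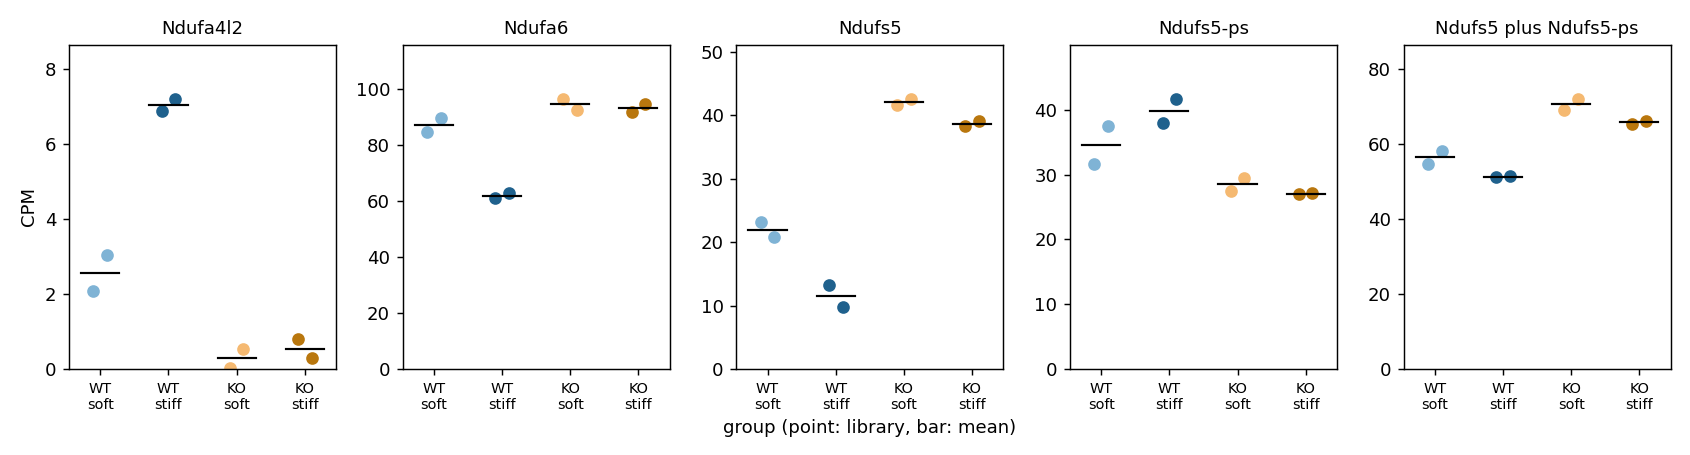
CPM of Ndufa4l2, Ndufa6, Ndufs5, its pseudogene Ndufs5-ps and the sum of the last pair, with a point for each library and a bar for the group mean. Ndufa6 is at 61.0 and 62.8 CPM in WT stiff and at 84.7 or more elsewhere. The gap between WT soft and WT stiff in Ndufs5 shrinks in the sum.

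Further nuclear members passed the adjusted p in WT with small differences, and those named here outside the core subunits were chosen after their values were seen. Cox6c (0.31), Atp5k (0.25), Ndufb7 (0.20), Atp5mpl (0.19), Ndufa3 (0.18), Ndufb8 (0.17) and Cox8a (0.16) were higher, as log2 fold changes. Ndufs3, a core subunit of the peripheral arm of complex I, fell by 0.23 and Sdha, the flavoprotein that oxidizes succinate, fell by 0.13 on the log2 scale (edgeR adjusted p = 0.00169 and 0.0114). Both Sdha and Cox8a lost the call in 3 of the 8 omissions of a single library. Of the 7 genes that were higher, Cox6c, Atp5k, Atp5mpl, Ndufa3 and Cox8a have coding sequences of 174 to 300 bases. Members with a coding sequence under 400 bases also differed between replicates in some groups. Of 36 such members, 7 were higher in the second than in the first WT soft library (median log2 difference -0.076), against 24 of 49 longer ones (median -0.00096). In KO soft it was 7 of 36 (median -0.061) against 19 of 49 (-0.017), and in KO stiff 28 of 36 (0.084) against 30 of 49 (0.035). In WT stiff the classes were alike, with 16 of 36 (-0.010) and 19 of 49 (-0.015). The median log2 fold change of the 36 in WT was 0.066, and 0.028 for the longer ones. Whether coding length or the differences between replicates had a part in these values was not tested. The core subunits Ndufs1 (-0.06), Ndufv1 (-0.04), Sdhb (-0.02), Uqcrc1 (-0.08), Uqcrfs1 (0.06), Cox4i1 (-0.05), Atp5a1 (-0.04) and Atp5b (-0.01), given as log2 fold changes, did not pass the test in WT. These encode electron-carrying subunits of complexes I, II and III, a subunit of the complex III core, the main regulatory subunit of complex IV and the head of ATP synthase.

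By complex, the nuclear medians in WT were 0.033 for complex I, 0.072 for its assembly factors, -0.043 for complex II, -0.019 for complex III, 0.093 for complex IV and 0.041 for complex V, as log2 fold changes. Within complex II the range ran from Sdha (-0.13) to Sdhd (0.07), a membrane anchor. In complex III it ran from Uqcr10 (-0.11) to Uqcr11 (0.19), which are small subunits of that complex. Assembly factors ran from Ndufaf4 (-0.16) to Ndufaf5. In complex IV the highest value was Cox5b-ps (0.42, which did not pass) and the lowest was Cox6a2 (-2.24), which rests on 0 to 4 counts in WT libraries. Among nuclear complex V members Atp5k was highest and Atp5a1 (-0.04) lowest.

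Among the mitochondrial members, 6 were lower on stiff in WT by adjusted p and the other 7 did not pass. In WT, mt-Co1 was at 14363 and 13863 CPM on soft and 11424 and 11628 CPM on stiff, and at 14994, 14669, 14095 and 14031 CPM in the KO libraries. The WT stiff pair lay below all others. Its log2 fold change in WT was -0.29 (SE 0.022, edgeR adjusted p = 3.74e-09). The 5 well-counted complex I subunits, each with at least 18181 counts in a library, also passed: mt-Nd2 fell by 0.34, mt-Nd4 by 0.30, mt-Nd6 by 0.27, mt-Nd5 by 0.23 and mt-Nd1 by 0.19 on the log2 scale, with edgeR adjusted p between 1.93e-07 and 1.87e-04. For mt-Nd4 the robust fit gave the same value with an adjusted p of 0.0629. The only mitochondrial member of complex III, mt-Cytb, had 2844 and 2703 CPM on soft and 2641 and 2638 CPM on stiff, a log2 fold change of -0.07 that did not pass. The first WT soft library was above the second for each of these 7 genes, and without it the median over the 13 members was -0.12, and mt-Nd4 stood at -0.16, mt-Nd5 at -0.15 and mt-Nd1 at -0.12 with the adjusted p still passed. mt-Nd6 is read from the other strand than the rest, and as the strand setting of the counting is not given, its reads and those of antisense RNA cannot be told apart. The ribosomal RNAs of the mitochondrion, which are no members and were chosen after their values were seen, fell as well (mt-Rnr1 by 0.22 and mt-Rnr2 by 0.46, edgeR adjusted p = 0.0012 and 1.13e-07). In KO against WT they were lower, unlike the protein genes described further on: the log2 fold change of mt-Rnr1 was -0.66 on soft and -0.57 on stiff (edgeR adjusted p = 9.54e-09 and 1.17e-08) and that of mt-Rnr2 was -0.36 on soft (edgeR adjusted p = 5.9e-06), with -0.03 on stiff, which did not pass.

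**Figure D4:**
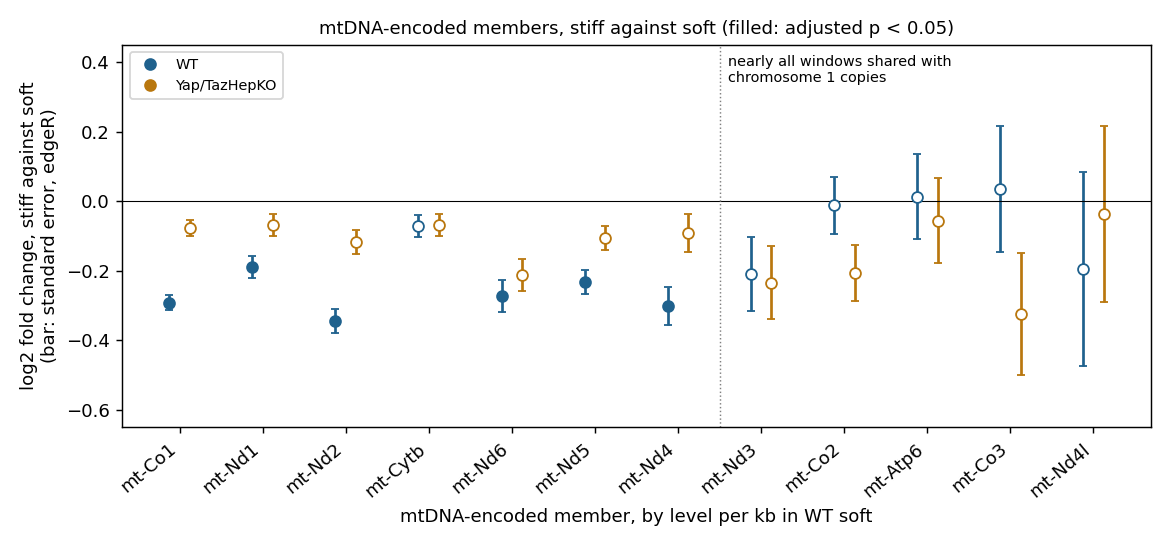
Log2 fold change of stiff against soft with its standard error for 12 mitochondrial members in WT and KO, ordered by level per kb. mt-Atp8, with 1 to 25 counts, is left out. Filled points pass the adjusted p. In WT, 6 of the 7 well-counted members on the left are filled and lie between -0.34 and -0.19, and no KO point is filled.

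The 6 remaining mitochondrial members carried few counts. mt-Co2 was at 29.5 and 29.3 CPM (means of WT soft and WT stiff), mt-Co3 at 18.2 and 18.7, mt-Atp6 at 16.5 and 16.6, mt-Nd3 at 20.3 and 17.7, mt-Nd4l at 3.73 and 3.20 and mt-Atp8 at 0.278 and 0.741 CPM. None passed the test in WT. With the copy added, mt-Atp6 was higher on stiff (0.25, edgeR adjusted p = 0.0426), opposite in sign to mt-Co1, which kept its value (-0.29). The copy Gm10925 alone stood at 0.41 (edgeR adjusted p = 0.0128), so the rise of the sum lay in the counts given to the copy.

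In KO hepatocytes, stiff was compared with soft to see what remained of these differences without YAP and TAZ. No member was changed in either direction, and 0.0140% of all tested genes were changed upwards and 0.00700% downwards. By adjusted p alone there were 0 members as well (0.0140% and 0.00700% of all tested genes). At an unadjusted p under 0.05, 3 of the 103 members were higher and 19 lower in edgeR, beside 622 and 455 of all 14279 tested genes. DESeq2 called 0 members by adjusted p. All 13 mitochondrial members had a negative log2 fold change, with a median of -0.11, and the nuclear median was -0.025. mt-Co1 was at -0.08, mt-Nd2 at -0.12, mt-Nd6 at -0.21 and Ndufs5 at -0.12, none past the adjusted p. Without the second KO soft library the mitochondrial median was -0.23, and with no filter on low counts 6 members passed the adjusted p.

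The difference between these effects was tested as an interaction, KO minus WT. Ndufs5 was changed upwards (0.82, SE 0.15, edgeR adjusted p = 3.46e-04), where 8.64% of all tested genes were. mt-Atp8 was changed downwards (-2.52, SE 0.89, edgeR adjusted p = 0.0418), where 8.21% were. The first falls to 0.03 (adjusted p = 0.838) with the pseudogene summed, and the second rests on 13 and 1 counts in WT soft, 16 and 14 in WT stiff, 25 and 13 in KO soft and 6 and 8 in KO stiff. By adjusted p alone 6 members were higher (15.3% of all tested genes) and 10 lower (14.1%). The higher ones include mt-Nd2 (0.23, edgeR adjusted p = 0.00148), mt-Co1 (0.22, 2.97e-05) and mt-Nd4 (0.21, 0.0458), and the last lost its call in 7 of the 8 omissions of a single library (0.056 without the first WT soft library). Without that library mt-Nd2 stood at 0.15 and still passed. The mitochondrial decline on stiff was thus larger in WT than in KO for mt-Nd2 and mt-Co1 by a test of the difference. For mt-Nd1, mt-Nd5 and mt-Nd6 the differences of 0.12, 0.13 and 0.061 did not pass. With the copy summed, mt-Co2 had a difference of the opposite sign (-0.28, edgeR adjusted p = 0.0476). Among the lower ones, named after their values were seen, were Ndufb1 (-0.47), Cox6c (-0.46) and Atp5k (-0.44). Cox6c and Atp5k have coding sequences under 400 bases, and no coding length was assigned to Ndufb1, which is in neither class. The median was -0.14 over coding sequences under 400 bases and -0.028 over longer ones.

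KO was next compared with WT on each hydrogel. These comparisons share their libraries with those above. On soft, Ndufs5 was changed upwards (0.93, SE 0.10, edgeR adjusted p = 1.23e-06), where 2.02% of all tested genes were, though only by 0.32 with its pseudogene summed. Ndufa4l2 was changed downwards (-3.22, SE 0.53, edgeR adjusted p = 2.19e-04), where 4.65% were, and its value ran from -5.82 without the second KO soft library to -2.19 without the first. By adjusted p alone 21 members were higher (7.48% of all tested genes) and 1 was lower (10.9%). Most values were small and positive: 74 of 90 nuclear members had a positive log2 fold change, with a median of 0.10 beside -0.0003 over all tested genes, and 11 of 13 mitochondrial members did, with a median of 0.079. Complex V had 15 of 17 positive (median 0.11), complex III 7 of 8 (0.087), complex IV 12 of 14 (0.10) and complex I 33 of 39 (0.12). Complex II had 2 of 4 positive (median 0.039) and the complex I assembly factors 5 of 8 (0.027). Members beyond the named core, chosen after their values were seen, include Ndufa8 (0.37), an accessory subunit of complex I that rose from 77.7 ± 6.53 to 101 ± 0.80 CPM (SD, n = 2), and Uqcrb (0.30), a subunit of complex III. Of the core and isoform families, Atp5g3 (0.20), Sdhb (0.19), Ndufa4 (0.18) and Cox4i1 (0.12) passed, as did mt-Nd6 (0.35), mt-Nd5 (0.28), mt-Nd4 (0.21) and mt-Co1 (0.072). Cox4i1 lost its call in 6 of the 8 omissions, Ndufa4 and mt-Co1 in 4 each, and mt-Nd4 fell to 0.084 without the second WT soft library. The count of 22 depended on the libraries and the scaling. It was 6 without the first KO soft library, 10 without the second WT soft library, 12 and 14 without either WT stiff library, and 43 with library size as the only scaling. The summed hepatocyte markers, mostly Alb, took a smaller part of the KO libraries, as given above, and the part of this in these values was not tested.

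On stiff, Ndufs5 (1.75), Ndufa6 (0.59) and Cox6a2 (4.71) were changed upwards, where 13.7% of all tested genes were, and Ndufa4l2 downwards (-3.66, SE 0.43, edgeR adjusted p = 9.25e-07), where 15.0% were. Ndufa6 passed with a standard error of 0.055 (edgeR adjusted p = 4.70e-08). Summed with its pseudogene, Ndufs5 stood at 0.35 (edgeR adjusted p = 6.36e-05), under the fold limit. Cox6a2, the muscle isoform of a complex IV subunit, had 2 and 4 counts in WT soft, 1 and 0 in WT stiff, 11 and 7 in KO soft and 19 and 14 in KO stiff. Only the KO stiff libraries had enough counts to pass the filter on low counts. Cox6a2 was thus tested only because of the group where it was high, and its call is not independent of that selection. The 33 counts in KO stiff against 1 in WT stiff gave a ratio of 32.1 with an exact 95% counting interval of 5.37 to 1305, so the size of this difference is poorly set. Its liver isoform Cox6a1 was at 290 ± 2.74 CPM in WT stiff and 334 ± 23.2 in KO stiff (SD, n = 2), a log2 fold change of 0.20 (edgeR adjusted p = 0.0191) that DESeq2 did not call and that was 0.12 without the first KO stiff library.

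By adjusted p alone, 24 members were higher in KO on stiff (25.4% of all tested genes) and 10 lower (25.7%). The higher ones held 7 of 13 mitochondrial members: mt-Nd4 (0.42), mt-Nd6 (0.41), mt-Nd5 (0.40), mt-Co1 (0.29), mt-Nd2 (0.27), mt-Nd1 (0.10) and mt-Cytb (0.083), with a median of 0.10 over the 13. With the copy summed, mt-Atp6 was lower (-0.34, edgeR adjusted p = 0.00648), as was mt-Co2 (-0.21, edgeR adjusted p = 0.0252), and mt-Nd4l was higher (0.54, edgeR adjusted p = 0.0352). Without the copies these 3 did not pass, and the copy of mt-Atp6 alone, Gm10925, stood at -0.43 (edgeR adjusted p = 0.00677). Core subunits with a positive value past the adjusted p were Sdha (0.19), Sdhb (0.18), Uqcrc1 (0.16), Ndufv1 (0.16), Atp5a1 (0.14), Cox4i1 (0.12) and Atp5b (0.12). Each of these but Sdha lost its call in 1 to 3 of the 8 omissions, mt-Nd1 in 3 and mt-Cytb in 5. Ndufs1 (0.070) and Uqcrfs1 (-0.061) did not pass. The 10 lower members were Ndufa4l2 and 9 others with log2 fold changes from -0.34 (Ndufa1, named after its value was seen) to -0.12 (Sdhd). The nuclear median was 0.021 and turned to -0.033 without the second KO stiff library, so no common direction of the nuclear members is given for this comparison. Members with a coding sequence under 400 bases had a median of -0.056 and longer ones 0.058.

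**Figure D5:**
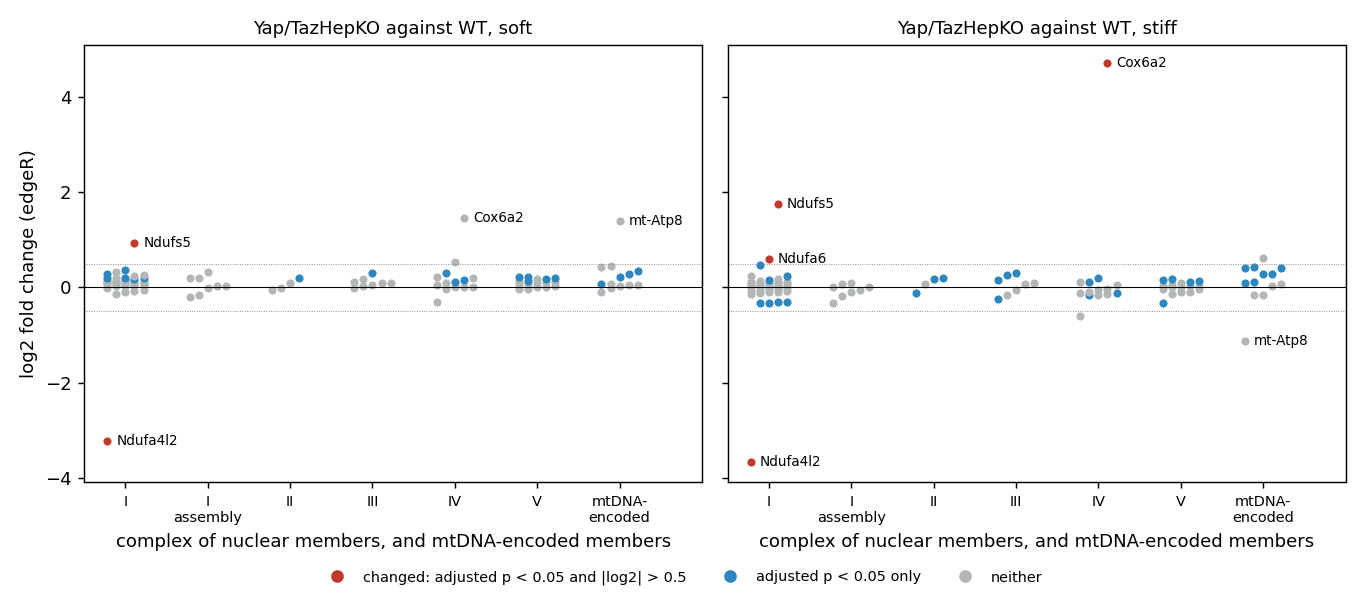
Log2 fold change of KO against WT for each tested member on soft (left) and stiff hydrogel (right), by complex for nuclear members and with mitochondrial members at the right end. Colours are as in the plot of stiffness effects by complex: red for changed, blue for the adjusted p only. Ndufa4l2 lies at -3.22 and -3.66, and most other members lie within 0.5 of 0.

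The isoform families of the pathway showed which forms these cultures used. Cox4i1 was at 433, 418, 470 and 455 CPM in WT soft, WT stiff, KO soft and KO stiff (group means), whereas Cox4i2, the form linked to low oxygen, had 0 to 5 counts. Cox6b1 was at 141 to 159 CPM (group means) and the testis form Cox6b2 had 0 to 3 counts. Cox7a2 was at 74.4 to 87.1 CPM and the muscle form Cox7a1 at 0.62 to 0.95 CPM. Cox8a was at 164 to 183 CPM, with Cox8b and Cox8c at 0, and Cox7b at 101 to 114 CPM, with Cox7b2 at 0. The genes for the membrane ring of ATP synthase differ in their promoters and import signals but encode the same mature subunit. Of these, Atp5g3 was at 296 to 339 CPM, Atp5g2 at 152 to 166 and Atp5g1 at 85.4 to 88.3 CPM (group means). Per kb in WT soft their order was the same, with 136, 90.7 and 17.4 CPM per kb. The isoforms of liver were thus the ones measured at substantial levels in each group, and the group means of the muscle, testis and hypoxia forms stayed under 1 CPM except Ndufa4l2 in WT.

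The genes that assemble and serve the complexes were counted in the same fit. In WT, of 22 tested complex IV assembly genes only Cox11, which delivers copper to complex IV, was changed (0.59 upwards, edgeR adjusted p = 0.0143), while 9 were higher and 2 lower by adjusted p alone, with a median log2 fold change of 0.17. Over all tested genes, 10.0% were changed upwards, and 21.1% were higher and 20.0% lower by adjusted p, which also bears on the counts that follow. Apart from the member Ndufaf5, no assembly gene of complexes I, II, III or V was changed, among 10 complex I factors outside the Ndufaf names and 4, 6 and 5 genes for the others. Among 19 genes of electron carriers and ubiquinone synthesis, Coq10b, a ubiquinone-binding protein, was changed upwards (0.58), and Coq8a, a kinase-like factor of ubiquinone synthesis, and Gpd2, the mitochondrial glycerol-3-phosphate dehydrogenase, downwards. Coq8a went from 98.3 ± 8.74 to 44.0 ± 1.35 CPM (SD, n = 2) in WT, a log2 fold change of -1.16, and was at 56.9 ± 0.69 and 58.3 ± 2.73 in KO soft and KO stiff. Gpd2 went from 97.3 ± 2.47 to 56.5 ± 0.11 CPM in WT (-0.78), and was at 115 ± 2.70 and 112 ± 0.60 in KO. Among 9 carriers of nucleotides, phosphate and ions, Slc25a4, an ADP/ATP carrier, rose by 1.10 on the log2 scale from 18.3 ± 1.36 to 39.3 ± 2.01 CPM, and Ucp2, an uncoupling-protein homologue, rose by 0.80 from 13.7 ± 0.43 to 23.9 ± 0.52 CPM (SD, n = 2 each). Slc25a4 was at 23.7 and 23.6 CPM in KO soft and KO stiff. For these 4, Coq8a, Gpd2, Slc25a4 and Ucp2, the stiffness effect differed between genotypes by 1.19, 0.74, -1.11 and -0.68 (edgeR adjusted p = 1.91e-08, 2.40e-07, 1.64e-06 and 0.00238). None of the 13 genes of the citric acid cycle, 16 of mitochondrial DNA expression and 8 tested regulators of mitochondrial biogenesis was changed in WT, with median log2 fold changes of 0.031, -0.12 and 0.054. In KO on stiff against soft none of the genes in these lists was changed. By the interaction test the lists held further changed genes beside the 4 named. Of the complex IV assembly genes 2 were changed downwards, and of the citric acid cycle 1. Of the genes of mitochondrial DNA expression 1 was changed upwards and 1 downwards. Over all tested genes this test gave 8.64% changed upwards and 8.21% downwards.

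Promoter sequence was examined because 74 of 90 nuclear members were on the same side of 0 in KO against WT on soft. RefSeq promoters (GRCm38.p6, from 250 bases before to 50 after the start) were matched for 79 of 97 nuclear members. The core of the site of NRF1, a regulator of respiratory genes, GCGCATGC, was found on either strand in 15.2% of the members and in 3.94% of 17492 protein-coding genes. The ETS motif CCGGAAG, which GABP binds, was in 24.1% and 12.9%, and the YY1 motif AAGATGG in 15.2% and 7.18%. The TEAD motif GGAATG, through which YAP and TAZ act, was in 10.1% and 15.5%, the hypoxia element core ACGTG in 24.1% and 23.2%, and the GC box GGGCGG in 45.6% and 49.2%. These are descriptions of letters, not of binding. The 26 tested members with an NRF1 or ETS match had a median log2 fold change of 0.083 in KO against WT on soft, and the 48 without had 0.11. In WT the stiff against soft medians were 0.058 and 0.048. The 250 bases before the start are shown for Ndufa6, which passed the adjusted p in WT, for Sdhb as a core subunit that did not pass in WT, and for Ndufs5, with matches to these motifs in capitals:
Ndufa6 (chr15:82354292-82354541, minus strand): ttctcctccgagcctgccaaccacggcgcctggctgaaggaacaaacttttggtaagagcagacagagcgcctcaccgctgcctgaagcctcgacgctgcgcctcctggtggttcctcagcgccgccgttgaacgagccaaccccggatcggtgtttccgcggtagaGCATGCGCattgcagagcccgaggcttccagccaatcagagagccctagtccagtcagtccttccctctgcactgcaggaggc
Sdhb (chr4:140961021-140961270, plus strand): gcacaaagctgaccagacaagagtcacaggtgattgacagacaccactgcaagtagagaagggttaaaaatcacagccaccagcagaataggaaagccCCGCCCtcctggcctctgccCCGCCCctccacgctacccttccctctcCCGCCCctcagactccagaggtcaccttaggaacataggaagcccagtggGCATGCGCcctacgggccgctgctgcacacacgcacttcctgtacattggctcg
Ndufs5 (chr4:123718187-123718436, minus strand): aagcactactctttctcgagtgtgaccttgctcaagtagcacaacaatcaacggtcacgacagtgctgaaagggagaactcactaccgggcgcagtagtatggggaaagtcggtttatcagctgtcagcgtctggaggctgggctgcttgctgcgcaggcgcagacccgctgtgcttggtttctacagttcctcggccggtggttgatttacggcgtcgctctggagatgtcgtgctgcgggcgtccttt
Ndufa6 holds the NRF1 core, Sdhb holds the NRF1 core and 3 GC boxes, and Ndufs5 holds none of the 6 motifs in this window. The percentages above also cover the 50 bases after the start, where Ndufa6 gains a GC box and Sdhb an ETS match. Ndufa4l2 was not matched to a promoter.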

How the data were processed

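RNA from 8 hepatocyte cultures was sequenced in paired ends. The authors aligned the reads with HISAT2 and counted them per gene with featureCounts, and the deposited table holds these raw counts with no normalization. The submitters' processing notes list HISAT2 2.0.5, edgeR 3.22.5, DESeq2 1.20.0 and GATK 4.1.4.1 and the build mm9. Positions in the table are not those of mm9, so sequence was taken by gene from GRCm38. The counting of strand and of reads with several matches is not given in the sources used here.

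The fits used edgeR 4.0.16 under R 4.3.3 (filterByExpr by group, TMM, glmQLFit on all 8 libraries, glmQLFTest, 4 residual degrees of freedom, Benjamini-Hochberg adjustment) and DESeq2 1.42.0 as an alternative. Shared windows were 64 bases, and copies were aligned with Biopython 1.88. Figures were drawn with matplotlib 3.10.9. The fit was first tested on simulated data, in which 100 genes were changed by a log2 of 0.5 and 100 by 1. An adjusted p below 0.05 recovered 43% and 73% of them, so a gene that did not pass may still differ.

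The text names all mitochondrial members, core subunits, isoform families, changed members, the extremes of each complex and changed members of the lists. Members and lists were chosen with earlier results of these data known.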

Additional observations from a re-analysis of the deposited data

Results flagged for a closer look

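The stiffness effect differed between KO and WT past both thresholds for 2 members by the interaction test. Ndufs5 had a difference of 0.82 on the log2 scale (KO minus WT, edgeR adjusted p = 3.46e-04), with -0.94 in WT and -0.12 in KO. Over the 8 omissions of a single library it ran from 0.61 to 1.04, and it was 0.03 with the counts of its pseudogene added. mt-Atp8 had a difference of -2.52 (edgeR adjusted p = 0.0418), with 1.25 in WT and -1.27 in KO, neither of which passed alone. It rests on 1 to 25 counts per library, ran from -4.89 to -1.84 over the 8 omissions and lost its call in 7 of them and under DESeq2.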

How the results depend on the processing

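There were 2 libraries a group, so a value can rest on 1 library, and members with few counts (mt-Atp8, Cox6a2, Ndufa4l2 in KO) have wide errors. The cause of the shifts below was not tested.

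Members changed in WT numbered 3, 1 with a log2 limit of 1, 19 with no minimum fold, and 2 to 6 over the omissions of a single library (6 without the first WT soft, 5 without the second WT stiff library). For the interaction the count was 2, but 1 with DESeq2, with at least 10 counts in every library, with copies summed (added after seeing the data) and with a log2 limit of 1, 16 with no minimum fold, and 1 to 7 over the omissions (7 without the first WT soft, 6 without the second KO stiff, 4 without the second KO soft, 1 without the second WT soft or the first KO soft library). For KO against WT on soft it was 2, but 1 with at least 10 counts in every library, with copies summed and with a log2 limit of 1, 22 with no minimum fold, and 2 to 4 over the omissions (4 without the first WT soft library). On stiff it was 4, but 2 with at least 10 counts in every library, 34 with no minimum fold, and 4 to 7 over the omissions (7 without the first KO stiff library). In KO, stiff against soft, it was 0 under all settings.

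By adjusted p alone, with alternatives added after seeing the data, KO stiff against soft had 0, 6 with no filter, 1 with only the 4 libraries compared and 0 to 1 over the omissions. The interaction had 16, 26 with no filter and 7 to 27 over the omissions (8 without the first WT stiff, 7 without the first KO soft or the first KO stiff, 27 without the second KO stiff library). KO against WT on soft had 22, 13 with DESeq2, 43 with library size only, 14 with only the 4 libraries compared, and 6 to 27 over the omissions. WT stiff against soft ran from 13 to 27 and KO against WT on stiff from 23 to 40 over the omissions.

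Medians ran over the omissions from -0.24 to -0.12 (mitochondrial, WT), -0.063 to -0.013 (nuclear, KO), -0.23 to -0.066 (mitochondrial, KO), 0.076 to 0.12 and 0.044 to 0.20 (nuclear and mitochondrial, KO against WT on soft) and 0.084 to 0.26 (mitochondrial, on stiff). The mitochondrial median of the interaction, 0.061, turned to -0.037 without the first WT soft and -0.027 without the second KO soft library (highest 0.13), and the nuclear median on stiff, 0.021, to -0.033 without the second KO stiff library (highest 0.029). With library size only, KO against WT medians were 0.16 and 0.13 on soft and 0.078 and 0.16 on stiff (nuclear and mitochondrial). As a share of protein-coding counts the mitochondrial members took 2.65% in WT stiff and 3.32% in KO stiff.

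Same-numbered libraries did not deviate together (correlations from -0.101 to 0.0424). A replicate block left 3, 0, 2, 2 and 4 members changed and gave 14 by adjusted p in KO against WT on soft. Of 995 values of 53 results for named members, 881 kept direction and call, 114 lost the call and 0 reversed.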
